A study of Mus musculus with 6 samples.

Results

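The 42 genes described here build and run mitosis: they make the spindle, attach it to the chromosomes, condense and separate the chromosomes and divide the cell. They were taken by gene symbol from a list of names that uses no threshold on the values, and all 42 were found among the 23260 genes listed in each count file. They fell into 10 roles, from the proliferation markers Mki67 and Top2a to the transcription factors Foxm1 and Mybl2.

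In the study, embryonic submandibular glands (eSMGs), the developing salivary glands, were taken from ICR mice at embryonic day 14 and cultured for 6 h either untreated (control) or with 50 µM AMD3100, a small-molecule antagonist of the chemokine receptor CXCR4. Each of the 3 control and 3 AMD3100-treated libraries came from 1 tube that pooled up to 10 glands, and no genotype, sex, litter or vehicle was given in the sources used here. Libraries held the 3′ ends of mRNA from whole glands, so that fewer dividing cells and less mRNA per cell cannot be told apart in any value below. Between 9051595 and 14393031 reads per library were assigned to genes.

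Both glandular compartments were present by their markers: 10 of 11 epithelial markers and 9 of 9 mesenchymal markers had counts in every library, the exception being the acinar water channel Aqp5, which was at 0 in control 1 and control 2. Levels are given as CPM, counts scaled to a TMM-normalized library total, always in the order of replicates 1, 2 and 3, and 3 counts, taken as the lowest level a library can show, stood at between 0.173 and 0.368 CPM. Because a 3′ library yields reads from the end of a transcript, CPM was not divided by length, and levels are compared here between libraries for the same gene. A gene called the most counted of a list is so by its reads, not by a level per length.

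In mitosis, spindle microtubules are captured by kinetochores, protein platforms that assemble on CENP-A chromatin at the centromere, and the spindle checkpoint delays separation until every chromosome is attached. The anaphase-promoting complex, with its partners CDC20 and UBE2C, then marks securin and cyclin B for destruction, after which the central spindle positions the contractile ring. In the embryonic gland, dividing progenitors are found in the outer cells of the end buds. Most genes of this programme are transcribed late in the cell cycle: they are repressed in resting cells by the DREAM complex and activated in G2 by B-MYB (Mybl2) and FOXM1 at promoter elements called CHR (cell cycle genes homology region), often next to CCAAT boxes, whereas genes of DNA synthesis are mostly switched on earlier through E2F sites.

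Those elements were looked for in the promoter windows of the genes, from 250 bases before to 50 bases after the annotated start, as given by RefSeq on GRCm38.p6. The letters searched were TTTGAA or TTCGAA for the CHR, CCAAT for the CCAAT box and TTCGCGC or TTGGCGC for the E2F site, on both strands, and no motif holds another, although E2F letters can overlap the end of a CCAAT box. Windows were found for 35 of the 42 genes (not for Aurkb, Incenp, Spc24, Tpx2, Kif20a, Smc4 and Foxm1). The CHR letters were in 28 of the 35 (80%), against 21.7% of 27025 genes with a window and 16.2% of the genes tested for expression. Within 50 bases of the start, the CHR letters were in 25 of the 35 (71.4%), against 6.12% of all genes with a window. A CHR together with a CCAAT box stood in 24 (68.6%), against 8.61% of all genes. The E2F letters were in only 4 of the 35 (11.4%, all genes 4.47%), where the comparison list of S phase genes had them in 40.5% and the CHR letters in 21.6%. In a comparison list of further mitosis genes, 63 had a window. Of these, 54% had the CHR letters, 38.1% a CHR together with a CCAAT box and 14.3% the E2F letters. Mad2l1, Birc5, Nuf2 and Mybl2 held none of the searched letters in this window.

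**Figure D1:**
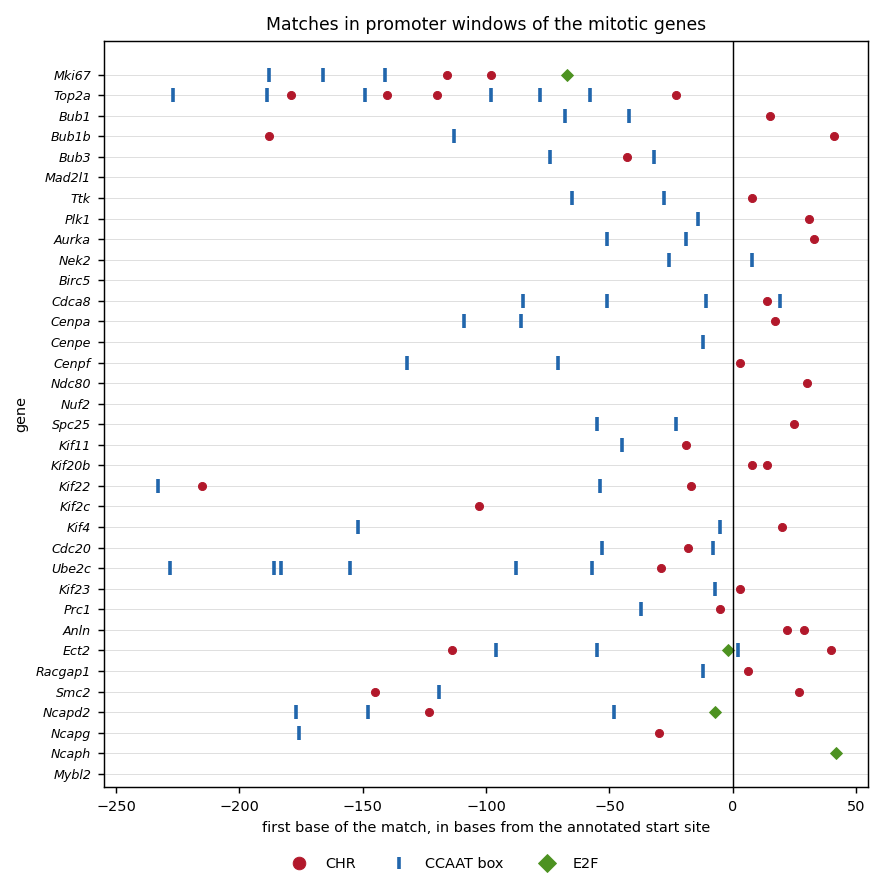
Positions of matches to the CHR, CCAAT box and E2F letters (symbols) in the promoter windows of the 35 genes with an entry, 1 gene per line in order of role, with the distance from the annotated start site in bases on the horizontal axis. In most genes a CHR match (circle) lies close to the start, after 1 or more CCAAT boxes (bars), and 4 genes have no symbol.

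Stretches of 6 promoters are printed because they belong to the genes the expression results turn on, with CHR and CCAAT letters in capitals as read on the strand of the gene (TTCAAA and ATTGG are the same letters on the other strand). Mki67 (chr7:135716470-135716579, minus strand) has 2 CHR matches behind 3 CCAAT boxes. Top2a (chr11:99024200-99024339, minus strand) has 3 CHR matches in the stretch shown. Cenpa (chr5:30666771-30666910, plus strand) has CCAAT boxes 109 and 86 bases before the start and a CHR match 17 bases after it. Ube2c (chr2:164769829-164769928, plus strand), Cdc20 (chr4:118437344-118437413, minus strand) and Kif23 (chr9:61946788-61946859, minus strand) each have 1 CHR match in the stretch shown.
Mki67: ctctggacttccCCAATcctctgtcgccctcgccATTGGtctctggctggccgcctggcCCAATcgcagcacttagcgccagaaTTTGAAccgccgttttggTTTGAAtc
Top2a: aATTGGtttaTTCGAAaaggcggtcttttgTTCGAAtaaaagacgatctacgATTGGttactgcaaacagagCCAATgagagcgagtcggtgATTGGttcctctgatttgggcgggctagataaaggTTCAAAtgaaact
Cenpa: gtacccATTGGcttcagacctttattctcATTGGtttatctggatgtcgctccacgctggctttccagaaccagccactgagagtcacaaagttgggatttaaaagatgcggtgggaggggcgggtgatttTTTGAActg
Ube2c: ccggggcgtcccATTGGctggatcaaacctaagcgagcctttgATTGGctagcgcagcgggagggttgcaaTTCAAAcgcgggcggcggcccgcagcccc
Cdc20: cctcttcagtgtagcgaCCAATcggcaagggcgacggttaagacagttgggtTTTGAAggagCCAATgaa
Kif23: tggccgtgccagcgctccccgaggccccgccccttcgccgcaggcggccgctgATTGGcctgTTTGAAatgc

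The replicate 3 libraries of both groups stood together and apart from the other 4, and AMD3100 2 stood apart on the opposite side. On the first principal component of log2 CPM over all genes tested, which held 34.9% of the variance, control 3 and AMD3100 3 were at 88.2 and 83.9, AMD3100 2 was at -126, and the other libraries lay between -34.2 and -0.925. On the second component control 1 also stood apart, at 120, from control 2 at 30.5 and AMD3100 1 at 8.47. There control 3 and AMD3100 3 were at -36.2 and -37.0, and AMD3100 2 was at -85.7. The summed level of 8 skeletal muscle markers was 282, 279 and 1321 CPM in control and 189, 149 and 1729 CPM in AMD3100-treated eSMGs, with the cardiac actin gene Actc1 the most counted in all 4 libraries of replicates 1 and 2 and Myog, the myogenic regulator, in both replicate 3 tubes. The summed level of 9 mesenchymal markers was 3757, 3767 and 1613 CPM in control and 3729, 3640 and 1430 CPM in treated eSMGs. Of the muscle markers, 7 of 8 were higher in both replicate 3 tubes than the mean of replicates 1 and 2. Of the mesenchymal markers, 5 of 9 were lower in both, and the lower sum was carried by the collagens Col1a1, Col1a2 and Col3a1, while Osr1, Prrx1, Pdgfrb and Twist2 were higher or mixed. Of 11 epithelial markers, 7 were lower in both, among them Krt5 (log2 difference -2.42 in control and -1.77 in treated eSMGs), Sox10 (-2.19 and -2.61) and Kit (-1.95 and -2.69), whereas Krt15, Cdh1 and Krt19 were lower in control 3 and higher in AMD3100 3. The summed epithelial level (Krt15 the most counted) was 2090, 2112 and 1432 CPM in control and 2578, 2221 and 3382 CPM in treated eSMGs, the treated libraries all above the controls. Without Krt15 the sum was 1048, 1100 and 544 CPM in control and 1212, 1206 and 910 CPM in treated eSMGs, and the groups overlapped.

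Many mitotic genes were also lower in the replicate 3 tubes, although their summed level, given below, was not lower in control 3. Relative to the mean of replicates 1 and 2 of the same group, their median log2 difference was -0.53 in control 3 and -0.67 in AMD3100 3, where all 13610 genes tested had medians of 0.09 and 0.07. Of the 41 mitotic genes tested, 25 (61%) were lower in both replicate 3 tubes, 8 (19.5%) were higher in both and 8 were mixed, while over all genes 34.8% were lower in both and 40.7% higher in both. Mki67, the proliferation antigen Ki-67, differed by -1.24 in control and -1.22 in AMD3100-treated eSMGs. Larger differences were seen for the motors Kif20b (-1.60 and -1.75) and Kif4 (-1.51 and -2.35) and for Prc1, which bundles the microtubules of the central spindle (-1.74 and -1.29). In the opposite direction stood Birc5 (survivin, 1.12 and 0.53), the kinetochore subunit Spc24 (1.01 and 0.20) and Kif20a (0.71 and 0.41). Across the 41 genes, the difference in control and that in treated eSMGs had a Pearson correlation of 0.544 and a Spearman correlation of 0.609 (all genes tested 0.519 and 0.596), values that describe 1 tube per group and genes that share those libraries. The part of the other cell types in these differences was not tested.

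**Figure D2:**
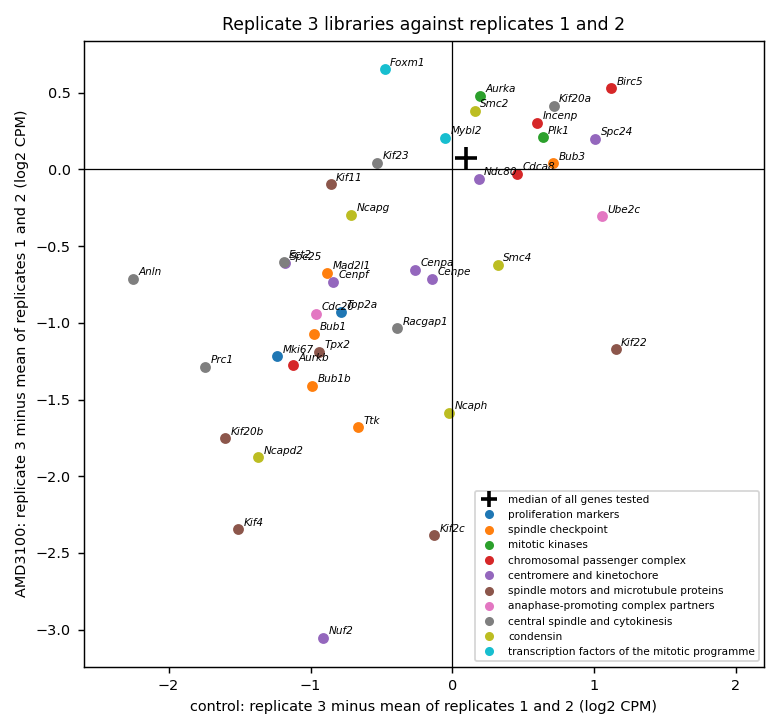
Difference of the replicate 3 library from the mean of replicates 1 and 2 in control (horizontal axis) and AMD3100-treated eSMGs (vertical axis), in log2 CPM, for the 41 mitotic genes tested (points, coloured by role). The region below 0 on both axes holds 25 of the 41 genes, while the median of all genes tested (cross) lies at 0.09 and 0.07.

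Whether AMD3100 lowered the transcripts of the division machinery was asked by comparing the 3 treated with the 3 control libraries. No mitotic gene differed by edgeR's quasi-likelihood test after Benjamini-Hochberg adjustment over all 13610 genes tested: 0 of 41 were called, beside 0% of all genes, and the lowest adjusted p-value among the 41 was 1. None had an unadjusted p-value under 0.05 either, where 1.68% of all genes did, all of those with a fold change (FC) over 1.5 (0.397% higher and 1.28% lower in treated eSMGs). DESeq2 likewise called 0 of the 41 by unadjusted p and FC, where it called 2.39% of all genes, and 0 after adjustment, where it called 5 of the 13610. The 42nd gene, Nek2, a kinase that helps separate the centrosomes, failed the filter on low counts. It was counted 9, 39 and 3 times in the control libraries and 27, 6 and 2 times in the treated ones.

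The 41 genes were divided nearly evenly, 20 with a higher and 21 with a lower mean in treated eSMGs (51.2% lower, all genes 47.8%). Their median log2 FC was -0.0046, against 0.02 for all genes, and the range ran from -0.81 for Kif23 to 0.61 for Nuf2. In each of these genes a treated tube was the lowest library, AMD3100 2 for Kif23 (6.36 CPM) and AMD3100 3 for Nuf2 (1.35 CPM). The log2 FC of Kif23 and Nuf2 without single libraries is not given here. An FC beyond 1.5 in either direction was reached by 9 of the 41 genes, 7 lower and 2 higher, where 23.1% of all genes reached it. Without the replicate 3 tubes the median of the 41 genes was 0.08 (all genes -0.0053), and without AMD3100 2 it was -0.25 (all genes 0.02). The summed level of all 42 genes was 1387, 1595 and 1517 CPM in control (mean 1500 ± 105, SD, n = 3) and 1525, 1766 and 1254 CPM in treated eSMGs (1515 ± 256, SD, n = 3), a ratio of means of 1.01, or 1.10 over replicates 1 and 2 alone. The groups overlapped in this sum, with AMD3100 2 the highest library and AMD3100 3 the lowest.

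The precision limits what these values can show. The median standard error of log2 FC was 0.47 (all genes 0.50), and only 5 of the 41 genes had a 95% interval that lay within a 2-fold change in both directions, where 21.3% of all genes did. A fall to 0.5 or less of the control level lay outside the interval of 16 genes (39.0%, all genes 41.7%), and a rise to 2-fold or more lay outside that of 18 (43.9%, all genes 40.7%). No gene had an interval within a 1.5-fold change in both directions. For 25 of the 42 genes no simulated read from the 3′ end aligned about as well to a different place in the genome, and for 5 (Bub3, Cdc20, Kif20a, Ncapg and Ube2c) a gene of the opposite strand lay over that end, which matters only if reads were counted without regard to strand.

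**Figure D3:**
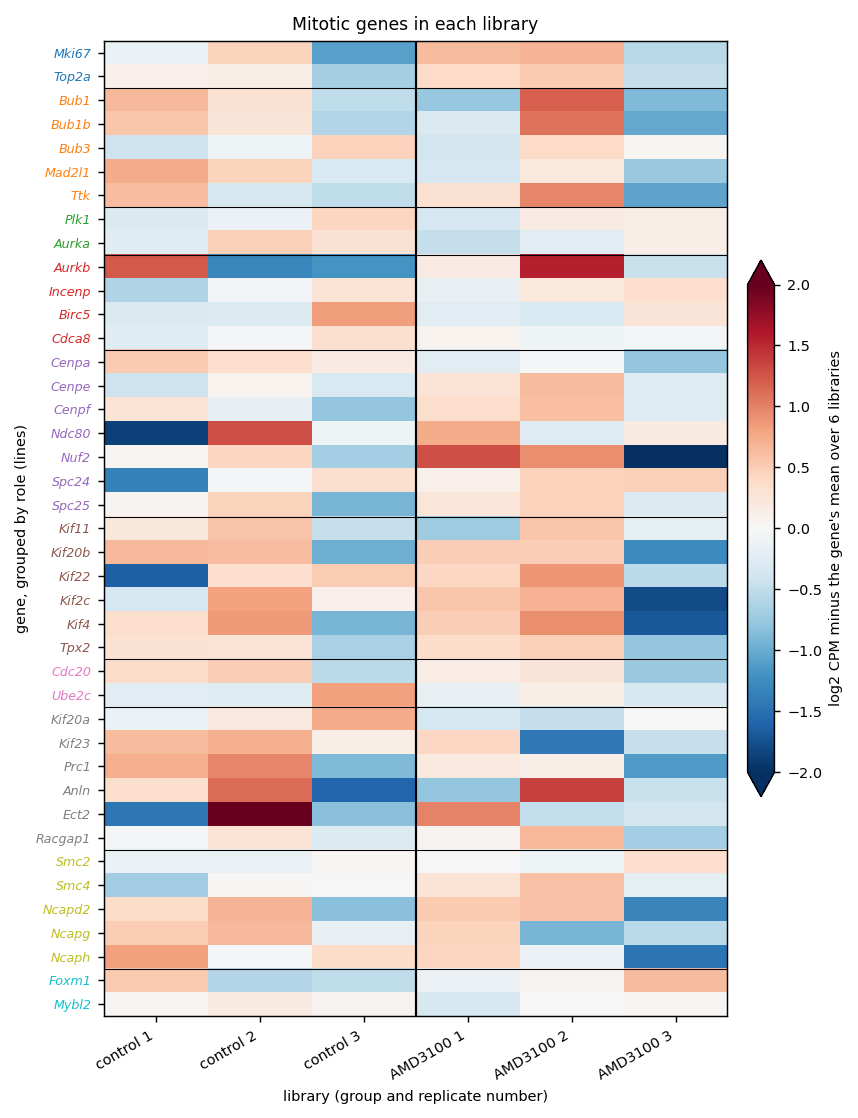
Level of each of the 41 mitotic genes tested (rows, grouped by role) in each of the 6 libraries (columns), as log2 CPM minus the mean of the gene over the libraries (red higher, blue lower, colours end at 2). Many rows are blue in control 3 and AMD3100 3, and no block of rows separates the 3 treated from the 3 control columns.

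**Figure D4:**
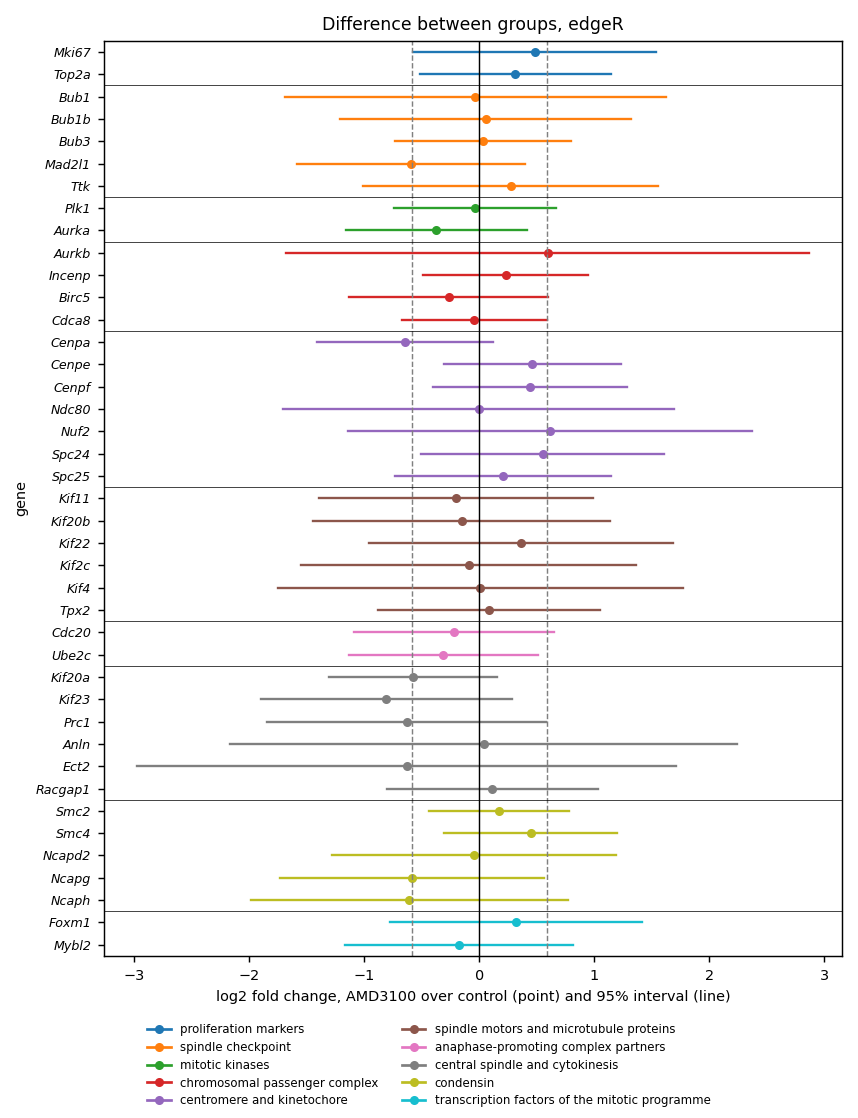
log2 FC of AMD3100-treated over control eSMGs (points) with 95% intervals (lines) from edgeR for the 41 mitotic genes tested, coloured by role, with the dashed lines at an FC of 1.5 in either direction. All 41 intervals include 0, and points lie on both sides of it, from -0.81 to 0.61.

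Same-numbered tubes can also be compared with each other, although only the replicate 3 tubes deviated clearly together. Over all genes, deviations from the group means correlated at 0.519 for replicate 3. For replicates 1 and 2 they correlated at 0.132 and 0.129, about as much as crossed numbers 1 and 2 (0.139 and 0.12). Over the mitotic genes, replicates 1 and 2 gave -0.106 and -0.0737. Higher in the treated tube of all 3 pairs were 8 of the 41 genes (19.5%, all genes 15.7%), namely Mki67, Top2a, Incenp, Cenpe, Cenpf, Spc24, Spc25 and Smc2. Lower in all 3 were 11 (26.8%, all genes 14.6%), namely Mad2l1, Aurka, Cenpa, Kif20b, Cdc20, Kif20a, Kif23, Prc1, Ncapg, Ncaph and Mybl2. In the comparison list of further mitosis genes, 13.2% were higher and 14.5% lower in all 3 pairs, near the shares of all genes. With the replicate number as a block, edgeR gave an unadjusted p-value under 0.05 for 4 of the 41 (all genes 6.66%): Mki67 on the higher side (all genes 2.79%) and Cenpa, Kif23 and Kif20a on the lower side (all genes 3.87%). Of these, Cenpa and Kif23 also passed the FC threshold (2 of 41), where 4.39% of all genes did, 1.49% higher and 2.90% lower. None of the 41 passed adjustment under the block (lowest adjusted p = 0.703 in edgeR), where 0.0220% of all genes did.

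By pair, the median difference of the 41 genes was 0.05 for replicate 1, 0.07 for replicate 2 and -0.29 for replicate 3 in log2 CPM (all genes 0.02, -0.0043 and 0.03). Higher and lower genes numbered 22 and 19 in pair 1, 23 and 18 in pair 2, and 14 and 27 in pair 3. The lower side was thus the larger one in pair 3 alone.

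Mki67 and Top2a, the usual markers of cycling cells, had higher means in treated eSMGs. Mki67 was at 37.6, 55.9 and 19.4 CPM in control and at 64.0, 65.9 and 27.9 CPM in treated eSMGs (FC 1.40, log2 FC 0.48, SE 0.47, unadjusted p = 0.329 and adjusted p = 1 in edgeR). The groups overlapped, AMD3100 3 lying below both control 1 and control 2, although each treated tube was above its same-numbered control. With the replicate block the log2 FC was 0.51 (unadjusted p = 0.0323, adjusted p = 0.722 in edgeR), and over replicates 1 and 2 alone it was 0.47. It depended on single libraries, from 0.17 without control 3 and 0.29 without AMD3100 2 to 0.88 without control 2. Of 11 reads of 50 bases taken from the last 300 bases of the Mki67 transcript and aligned to the genome, 10 matched about as well elsewhere, so its counts depend on how shared reads were assigned. Top2a, the topoisomerase that untangles sister chromatids, had no such reads. It was at 158, 160 and 92.1 CPM in control and at 191, 211 and 106 CPM in treated eSMGs (log2 FC 0.31, 95% interval -0.52 to 1.14, unadjusted p = 0.415 and adjusted p = 1 in edgeR), again with AMD3100 3 below control 1 and 2. Over replicates 1 and 2 alone its log2 FC was 0.34 (unadjusted p = 0.0445 in edgeR, an FC under 1.5).

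The 5 spindle checkpoint genes had a median log2 FC of 0.03, with 3 higher and 2 lower. With the replicate block the median was -0.14, and Bub1b turned from a log2 FC of 0.05 to -0.14. Bub3, the most counted of them, was at 83.2, 102 and 151 CPM in control and 85.6, 144 and 114 CPM in treated eSMGs, with overlapping groups (log2 FC 0.03, or 0.30 over replicates 1 and 2). Mad2l1, which forms the inhibitor of CDC20, was at 21.6, 17.7 and 10.6 CPM in control and 10.3, 15.0 and 7.74 CPM in treated eSMGs (log2 FC -0.59, SE 0.44, unadjusted p = 0.207 and adjusted p = 1 in edgeR). Each treated tube was below its same-numbered control for Mad2l1, but AMD3100 2 was above control 3. The kinases Bub1, Bub1b and Ttk had log2 FC of -0.04, 0.05 and 0.27, and all 3 were highest in AMD3100 2 and lowest in AMD3100 3. The opposite-strand gene over the end of Bub3 is Fgfr2.

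Among the mitotic kinases, Plk1, which drives entry into mitosis and centrosome maturation, was at 70.7, 79.7 and 117 CPM in control and 68.7, 97.1 and 94.3 CPM in treated eSMGs (log2 FC -0.04, 95% interval -0.74 to 0.67, and 0.13 over replicates 1 and 2). Aurka, the Aurora kinase of the spindle poles, was at 18.6, 30.7 and 27.4 CPM in control and 16.0, 19.1 and 24.3 CPM in treated eSMGs (log2 FC -0.37, SE 0.35). Plk1 was mixed across the pairs and Aurka lower in all 3, with overlapping groups for both.

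The chromosomal passenger complex, which corrects faulty attachments and later moves to the central spindle, had 2 members higher and 2 lower. Incenp, its scaffold, was at 40.4, 58.7 and 73.7 CPM in control and 55.4, 70.5 and 77.0 CPM in treated eSMGs (log2 FC 0.23, SE 0.32). Birc5 was at 95.2, 96.1 and 208 CPM in control and 98.8, 93.9 and 139 CPM in treated eSMGs (log2 FC -0.27, SE 0.38). The highest library was control 3, and over replicates 1 and 2 alone the log2 FC was 0.01. Cdca8 (borealin) had the narrowest interval of the complex, with a log2 FC of -0.05 and a 95% interval from -0.68 to 0.58, whereas Aurkb, its kinase, varied from 1.02 to 5.87 CPM among the controls and had an interval from -1.68 to 2.87.

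At the centromere and kinetochore, 5 of 7 genes had higher and 2 had lower means in treated eSMGs, with a median log2 FC of 0.44. Cenpa, the histone H3 variant that marks the centromere, was at 30.3, 26.4 and 23.5 CPM in control (26.8 ± 3.39, SD, n = 3) and 18.1, 20.8 and 12.3 CPM in treated eSMGs (17.1 ± 4.37, SD, n = 3). All 3 treated libraries lay below all 3 controls, which made Cenpa the only mitotic gene whose groups did not overlap (1 of 41), where 7.44% of all genes did not, 4.17% lower and 3.28% higher. Its FC was 0.639 (95% interval 0.375 to 1.09), with the lowest unadjusted p-value of the 41 (0.0894, adjusted p = 1 in edgeR), and a two-sided exact permutation test gave p = 0.1, the smallest that 3 against 3 libraries allow. That permutation value follows from the lack of overlap and adds nothing to it. With the replicate block, Cenpa had a log2 FC of -0.67 (unadjusted p = 0.0325, adjusted p = 0.722 in edgeR), and over replicates 1 and 2 alone it had -0.55. No read from its 3′ end was shared with another place.

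Cenpf, a large protein of the outer kinetochore, was at 44.7, 33.0 and 21.4 CPM in control and 47.4, 55.9 and 30.9 CPM in treated eSMGs (log2 FC 0.44, SE 0.37), higher in each pair. Cenpe, the kinetochore motor, was at 21.5, 30.2 and 23.1 CPM in control and 34.8, 44.3 and 23.9 CPM in treated eSMGs (log2 FC 0.46, SE 0.34). Cenpf and Cenpe were thus higher in every pair while Cenpa was lower in every pair, with none of the 3 called. The 4 subunits of the NDC80 complex, which grips the microtubule, differed widely in precision. Spc24 and Spc25 had log2 FC of 0.55 and 0.21 (SE 0.47 and 0.41), while Ndc80 at -0.0046 and Nuf2 at 0.61 had standard errors of 0.75 and 0.78. Ndc80 ranged from 19 to 204 counts among the controls, and Nuf2 from 11 to 230 counts among the treated tubes.

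The 6 motors and microtubule proteins of the spindle had a median log2 FC of -0.04, 3 higher and 3 lower. Tpx2, which nucleates microtubules around chromatin, was at 34.9, 34.3 and 18.05 CPM in control and 36.5, 39.4 and 16.6 CPM in treated eSMGs (log2 FC 0.08, SE 0.42). Kif22, a chromosome-arm motor, was at 5.17, 20.2 and 22.7 CPM in control and 21.2, 29.5 and 11.05 CPM in treated eSMGs (log2 FC 0.36, SE 0.58, and 0.99 over replicates 1 and 2), the low value of control 1 lying apart from the other 2 controls. Kif11, which pushes the spindle poles apart, Kif20b, Kif2c and Kif4 had log2 FC between -0.20 and 0.01, each with a standard error above 0.5. All but Kif22 and Kif11 of the 6 were lowest in AMD3100 3.

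Both partners of the anaphase-promoting complex had lower means. Ube2c was at 60.6, 59.7 and 125 CPM in control and 63.6, 77.3 and 56.7 CPM in treated eSMGs (log2 FC -0.31, SE 0.36). As for Birc5, control 3 was the high library, and over replicates 1 and 2 alone the log2 FC of Ube2c was 0.22. Cdc20, named here after its values were seen, was at 88.6, 95.8 and 47.3 CPM in control and 76.1, 81.5 and 41.0 CPM in treated eSMGs (log2 FC -0.22, SE 0.38), lower in each pair by a similar ratio. The opposite-strand genes are Tnnc2 for Ube2c and Elovl1 for Cdc20.

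The central spindle and cytokinesis genes had the lowest median of the 10 roles, -0.60, with 4 of 6 genes lower, a group that was singled out after its values were seen. With the replicate block the median was -0.25 and 3 of the 6 were lower, since Ect2 turned from a log2 FC of -0.63 to 0.13. Their summed level was 138, 179 and 139 CPM in control (152 ± 23.2, SD, n = 3) and 120, 112 and 92.8 CPM in treated eSMGs (108 ± 14.0, SD, n = 3), so that the treated libraries all lay below the controls. The sums of the other roles all overlapped between the groups. Among single genes, groups did not overlap for 7.44% of all genes, 4.17% on the lower side. The separation of this sum, seen among 10 roles, was not tested. The summed epithelial markers separated the groups in the opposite direction, as given above, but not without Krt15. Of the 11 epithelial markers, 9 had higher and 2 lower means in treated eSMGs (18.2% lower, all genes 47.8%), from a log2 FC of -0.05 for Epcam and Sox10 and 0.03 for Krt5 to 1.10 for Krt7 (unadjusted p = 0.0244, adjusted p = 1 in edgeR) and 1.58 for Aqp5, which had few counts. Lower means in treated eSMGs were found for 9 of 9 erythroid markers (median log2 FC -0.44) and 7 of 9 mesenchymal markers (median -0.14). The other 2 mesenchymal markers were higher, and no marker of either list passed adjustment. Of 4 endothelial markers tested 3 were lower, while of 8 muscle markers 5 were higher and 3 lower. The part of cell composition in the sum of the 6 central spindle and cytokinesis genes was not tested. Kif20a (MKLP2), which carries the passenger complex to the central spindle and was the most counted of the 6, was at 47.6, 59.9 and 87.7 CPM in control and 41.1, 37.6 and 52.3 CPM in treated eSMGs. Its log2 FC was -0.58 (SE 0.32, unadjusted p = 0.107 and adjusted p = 1 in edgeR), and -0.54 with the replicate block (unadjusted p = 0.0181, adjusted p = 0.703 in edgeR). Without control 3, its highest library, the log2 FC was -0.29 (unadjusted p = 0.383 in edgeR). AMD3100 3 was above control 1, so that the groups overlapped, and Cdc23, another mitotic gene, lies on the opposite strand over the 3′ end of Kif20a.

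Kif23 (MKLP1), the motor of the centralspindlin complex, was at 26.4, 28.0 and 18.7 CPM in control and 22.8, 6.36 and 12.4 CPM in treated eSMGs (log2 FC -0.81, SE 0.48, unadjusted p = 0.128, adjusted p = 1 in edgeR). Its largest gap, between 28.0 and 6.36 CPM, was in pair 2, and AMD3100 1 lay above control 3. With the replicate block its log2 FC was -0.95 (unadjusted p = 0.0398, adjusted p = 0.727 in edgeR). Prc1 was at 39.0, 46.3 and 12.7 CPM in control and 27.0, 25.4 and 10.7 CPM in treated eSMGs (log2 FC -0.63, SE 0.53), so that control 3 lay below AMD3100 1 and 2 while each pair was lower. Over replicates 1 and 2 alone Prc1 passed unadjusted p and FC, as did 4.39% of all genes, but not adjustment. Racgap1, the partner of Kif23 in centralspindlin, had a log2 FC of 0.11 (95% interval -0.81 to 1.03), and its difference from Kif23 was not tested. Anln, the anillin of the contractile ring, and Ect2, which activates RhoA there, had standard errors of 0.97 and 1.03, and Ect2 ranged from 12 to 176 counts among the controls.

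**Figure D5:**
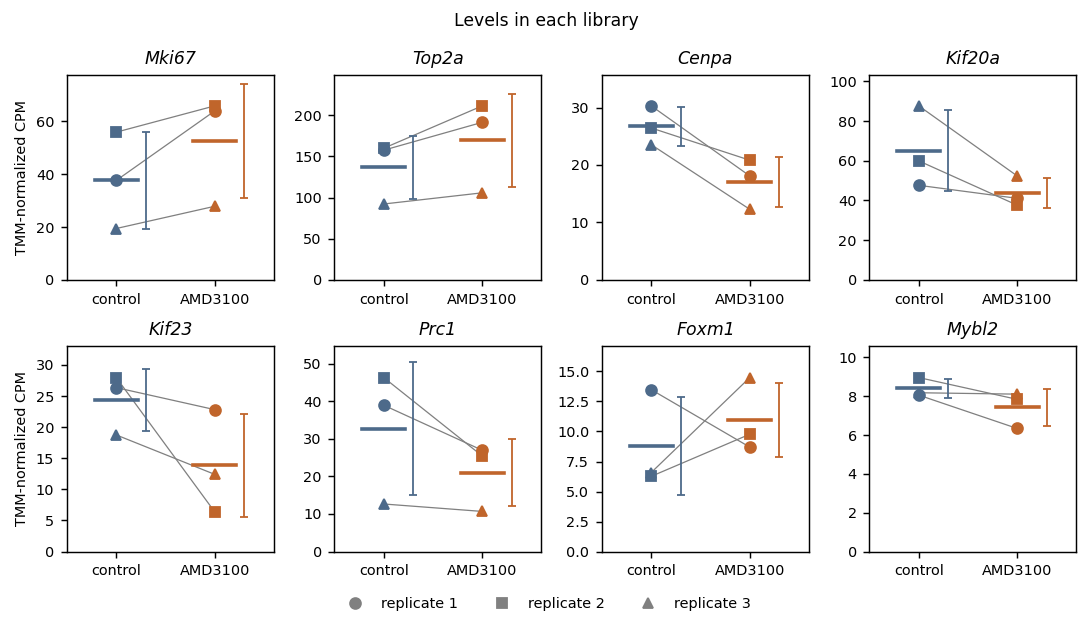
TMM-normalized CPM of 8 mitotic genes in each library, with control on the left and AMD3100-treated eSMGs on the right of each panel. Symbols mark the replicate number, grey lines join same-numbered tubes, thick bars are means and error bars SD (n = 3). Mki67 and Top2a slope upward in all 3 pairs, and Cenpa, Kif20a, Kif23, Prc1 and Mybl2 downward, while Cenpa alone has groups that do not overlap.

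Condensin, which compacts chromosomes, had its core ATPases Smc2 and Smc4 above and its regulatory subunits Ncapd2, Ncapg and Ncaph below 0 in log2 FC. Smc4 was at 61.5, 101.3 and 98.4 CPM in control and 120, 149 and 86.8 CPM in treated eSMGs (log2 FC 0.45, SE 0.33, unadjusted p = 0.211, adjusted p = 1 in edgeR). It was higher in pairs 1 and 2 and lower in pair 3, and over replicates 1 and 2 alone its log2 FC was 0.72 (unadjusted p = 0.0108, adjusted p = 0.767 in edgeR), in a fit where 4.39% of all genes passed unadjusted p and FC. Smc2 had the smallest standard error of the 41 genes (0.27), with 76.6, 76.2 and 85.2 CPM in control, 83.4, 79.0 and 106 CPM in treated eSMGs and a log2 FC of 0.17 (95% interval -0.44 to 0.78). Ncapg and Ncaph had log2 FC of -0.59 and -0.61, with standard errors of 0.51 and 0.61, and Ncapd2 had -0.05.

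The regulators of the programme had few counts, from 66 to 154 for Foxm1 and from 66 to 123 for Mybl2. Foxm1 was at 13.5, 6.26 and 6.58 CPM in control and 8.70, 9.77 and 14.5 CPM in treated eSMGs (log2 FC 0.32, SE 0.48), without a common direction across pairs, and over replicates 1 and 2 its log2 FC was -0.10. Of the 11 reads from its 3′ end, 6 aligned about as well elsewhere. Mybl2 was at 8.05, 8.96 and 8.18 CPM in control and 6.34, 7.83 and 8.10 CPM in treated eSMGs (log2 FC -0.18, SE 0.44). Mybl2 was lower in each pair, in pair 3 by only 8.18 against 8.10 CPM, and AMD3100 3 lay above control 1. Under upper quartile normalization its groups did not overlap, as for 2 of the 41 genes and 7.26% of all genes.

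For comparison, 78 further mitosis genes, among them cyclin B genes, regulators of sister chromatid cohesion, and subunits of augmin and the anaphase-promoting complex, were read from the same fit. Of the 76 that passed the filter (Depdc1b and Cit did not), 40 had higher and 36 lower means, with a median log2 FC of 0.03, and 0 had an unadjusted p-value under 0.05 or an adjusted one. Cdk1, the kinase whose activity defines mitosis, had the lowest p-value of this list. It was at 127, 162 and 300 CPM in control and 94.2, 154 and 130 CPM in treated eSMGs (log2 FC -0.64, SE 0.38, unadjusted p = 0.131, adjusted p = 1 in edgeR), lower in each pair, with the highest value in control 3. Over replicates 1 and 2 its log2 FC was -0.23, and with the replicate block -0.57 (unadjusted p = 0.0217, adjusted p = 0.703 in edgeR). With the block, edgeR gave an unadjusted p-value under 0.05 for 3 of the 76 genes, all lower (all genes 6.66%, 3.87% lower). In this list 14.5% of the genes tested were lower in all 3 pairs (all genes 14.6%). Anapc5 and Numa1, which with Cdk1 were the most counted of the list, had log2 FC of 0.17 and 0.21.

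The 46 genes of S phase and replication all passed the filter, 20 with higher and 26 with lower means and a median log2 FC of -0.08. Both thresholds of unadjusted p and FC were passed by 2 of them, where 1.68% of all genes passed, and 0 passed adjustment. With the replicate block 4 passed, all lower (all genes 4.39%), and again 0 passed adjustment. Lower in all 3 pairs were 13 of the 46 (28.3%, all genes 14.6%), and 2 were higher in all 3 (4.35%, all genes 15.7%). Fen1, the flap endonuclease of lagging-strand synthesis, was at 22.6, 14.6 and 18.7 CPM in control and 12.5, 4.42 and 6.88 CPM in treated eSMGs (log2 FC -1.22, SE 0.47, unadjusted p = 0.0296, adjusted p = 1 in edgeR). Pole, the catalytic subunit of the leading-strand polymerase, was at 1.05, 2.04 and 2.69 CPM in control and 10.7, 7.19 and 3.44 CPM in treated eSMGs (log2 FC 1.88, SE 0.74, unadjusted p = 0.0319, adjusted p = 1 in edgeR), and with the replicate block it no longer passed (log2 FC 1.83, unadjusted p = 0.0612, adjusted p = 0.766). The groups overlapped for neither gene, and the directions were opposite. Of the 46 genes, groups did not overlap for 6 on the lower side (all genes 4.17%) and 1 on the higher side (all genes 3.28%). The calls of Fen1 and Pole depended on which libraries were included. Fen1 no longer passed over replicates 1 and 2 (log2 FC -1.13, unadjusted p = 0.0741 in edgeR) or without control 1, control 3, AMD3100 2 or AMD3100 3 (log2 FC -1.21 to -0.93, unadjusted p = 0.0535 to 0.0885 in edgeR). Pole no longer passed without control 1, control 2, AMD3100 1 or AMD3100 2 (log2 FC 1.46 to 1.92, unadjusted p = 0.0534 to 0.178 in edgeR). A predicted gene, Gm10143, lies on the opposite strand over the 3′ end of Fen1. Lig1, Mcm7 and Rpa2, also of the replication fork, had log2 FC of 0.09, -0.21 and 0.09. A difference between the mitotic and the S phase genes was not tested.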

How the data were processed

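Counts per gene symbol for 3 control and 3 AMD3100-treated libraries were deposited by the authors without normalization, made from 50 bp single reads of a 3′ mRNA kit. The submitters' processing notes name Bowtie2, edgeR and the build mm10, without versions, and the annotation and strand setting of the counting are not given in the sources used here. The paper's methods name quantile normalization, which was run as an alternative. Of 23282 lines per file, 22 that repeated a symbol with the same counts were dropped. Groups and replicate numbers came from the labels. The paper's methods speak of independent experiments for its results in general, but do not say which litters or cultures the tubes came from, so p-values measure only the spread between these tubes, which may be partly technical.

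The main test was edgeR 4.0.16 in R 4.3.3 (TMM, filterByExpr, glmQLFit, glmQLFTest, Benjamini-Hochberg over 13610 genes), with group as the only term. The biological coefficient of variation was 0.579. Alternatives were DESeq2 1.42.0, limma-voom 3.58.1 with quantile normalization, upper quartile normalization, other filters on low counts, robust estimation, Rn45s left out, replicate number as a block, replicates 1 and 2 only, and each library left out. The fits were also run on simulated data, and no value given here comes from those runs. Pairing rests on the replicate numbers in the labels: same-numbered deviations from the group means correlated at 0.132, 0.129 and 0.519 over all genes, though crossed numbers 1 and 2 gave 0.139 and 0.12, and over the mitotic genes alone the values were -0.106, -0.0737 and 0.544.

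Rn45s, the ribosomal RNA precursor, took 32.4%, 27.5% and 20.2% of counts in control and 16.2%, 32.5% and 22.7% in treated libraries. Limits of 3 counts cover counting error only. Shared reads were judged by aligning simulated reads to NCBIM37 with minimap2 2.31-r1302 (GENCODE vM1 transcripts), another build than that of the counts. The members and lists were chosen with earlier results of these data known. Genes named with values were Mki67, Top2a, Foxm1, Mybl2, and in each role the most counted gene and that with the lowest p-value, and others were chosen after their values were seen.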

Additional observations from a re-analysis of the deposited data

How the results depend on the processing

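None of the 41 genes tested passed adjustment under any of the 15 alternatives, and of 25 named genes, every direction was kept under the other normalizations, DESeq2 and the other filters on low counts. By unadjusted p under 0.05 and FC over 1.5, the count was 0, but 2 with the replicate block (Cenpa and Kif23, all genes 4.39%), 2 over replicates 1 and 2 only (Prc1 lower and Smc4 higher, all genes 4.39%) and 0 to 1 when a library was left out (Prc1 without control 3, all genes 3.84%, and Kif23 without AMD3100 1, all genes 1.15%). Of the other named genes, Fen1 and Pole lost their calls under several of these settings, as given with their values. The median log2 FC ranged from -0.25 (without AMD3100 2) to 0.13 (without control 2). Under upper quartile normalization 2 genes, Cenpa and Mybl2, had groups that did not overlap (all genes 7.26%). The ratio of summed levels over replicates 1 and 2, chosen after seeing the data, was 1.10. Over replicates 1 and 2 only, the log2 FC turned to 0.13 for Plk1, 0.0058 for Birc5, 0.22 for Ube2c, -0.10 for Foxm1 and -0.0187 for Anapc5. With each library left out in turn, it turned sign within -0.16 to 0.31 for Bub3, -0.19 to 0.21 for Plk1, -0.48 to 0.22 for Birc5, -0.0687 to 0.70 for Kif22, -0.17 to 0.37 for Tpx2, -0.50 to 0.13 for Ube2c, -0.17 to 0.32 for Anapc5, -0.0182 to 0.32 for Numa1, -0.58 to 0.18 for Mcm7 and -0.14 to 0.47 for Rpa2. Of the other 15 named genes, the log2 FC of 12 kept its sign but changed by over 1.5 times without at least 1 library, such as 0.17 to 0.88 for Mki67, 0.10 to 0.55 for Top2a, -0.76 to -0.29 for Kif20a and -0.88 to -0.19 for Cdk1, and that of Cenpa, Fen1 and Pole did neither. The cause of these changes was not tested. Depth limits Nek2 in particular, which had 2 to 39 counts per library.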

Other observations

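The spread within a group was read for each gene from log2 CPM with a prior count of 0.5 added. Among the controls, Aurkb, Ndc80, Kif22, Anln and Ect2 (5 of 41 genes tested, 12.2%, all genes 22.3%) spanned over 4-fold, and among the treated tubes Bub1, Bub1b, Ttk, Nuf2, Kif2c, Kif4 and Anln did (7 of 41, 17.1%, all genes 21.6%). Of the 76 further mitosis genes tested, 17 (22.4%) and 22 (28.9%) did. Aurkb, at 2.82, 7.37 and 1.84 CPM in the treated tubes, lay at the 4-fold limit and was not counted among the 7. Ect2 was counted 12, 176 and 16 times in control and 99, 22 and 18 times in treated eSMGs. Of the further mitosis genes, chosen after their values were seen, the augmin subunit Haus4 was counted 1, 78 and 45 times in control and 174, 153 and 32 times in treated eSMGs. The kinase gene Melk showed 46, 93 and 40 reads in the controls and 79, 0 and 18 in the treated tubes. Plk4, which starts centriole duplication, showed 393, 210 and 38 reads in the controls and 229, 100 and 11 in the treated tubes, lower in each pair. Its log2 FC was -1.16 (SE 0.88, unadjusted p = 0.223, adjusted p = 1 in edgeR), and -1.17 with the replicate block (unadjusted p = 0.0107, adjusted p = 0.596 in edgeR). With the block, 3 of the 76 further mitosis genes and 6.66% of all genes had an unadjusted p-value under 0.05 in edgeR.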
